A study of Mus musculus with 6 samples.

Results

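The genes described here are 8 that surround the sort and the growth factor supply of mammary gland macrophages. They were taken by symbol from the 24061 genes of the deposited count table, by a rule that names the genes and uses no measured value, although earlier results of these data were known when it was set. *Ptprc*, *Itgam* and *Emr1* encode CD45, CD11b and F4/80, the surface proteins that defined the sort gate. *Csf1r*, *Csf2ra*, *Csf2rb* and *Csf3r* encode receptors of the colony-stimulating factors, and *Csf1* encodes a ligand of the first of them. The question was whether macrophages that carry the hyaluronan receptor Lyve-1 on their surface differed from those without it in the RNA for the shared gate markers and for the growth factor receptors.

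The libraries came from FVB/N mice, an inbred strain, and the labels name no agent or transgene. Inguinal (#4) glands were freed of lymph nodes and digested with collagenase, and CD45+CD11b+F4/80+ cells were sorted into Lyve-1+ and Lyve-1- fractions. There were 3 libraries of each subset, and each was made from the glands of 4 pooled mice. In each subset, replicate 1 came from mice aged 6 weeks, whereas the mice of replicates 2 and 3 were 10 weeks old. The p-values below therefore measure the spread between pools. In the subset comparison this spread includes any difference between the ages, as the fit had no term for age. A difference between ages within a subset rests on 1 pool at 6 weeks.

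CSF1R is a receptor tyrosine kinase that binds CSF1 and IL-34 and sustains the survival and proliferation of most tissue macrophages. GM-CSF signals through a complex of its own alpha chain, the product of *Csf2ra*, and the common beta chain, the product of *Csf2rb*, which IL-3 and IL-5 receptors also use. That complex activates JAK2 and STAT5. G-CSF signals through the receptor encoded by *Csf3r*, best known from neutrophils, and in the mammary gland CSF1 is known for its part in recruiting macrophages during ductal growth.

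Library totals ran from 6478007 to 21406839 counts. *Lyve1* itself lay between 1.43 and 7.44 normalized counts in the Lyve-1- libraries and between 596.6 and 2352 in the Lyve-1+ libraries, as the labels have it. Normalized counts here are counts scaled by TMM to a common library size (CPM). The 2 libraries with counts on the most olfactory receptor genes, genes best known from nasal neurons, were Lyve-1- replicate 3 (652 of 1122 such genes) and Lyve-1+ replicate 1 (370), against 4 to 134 in the others. In counts per kilobase of these genes, not scaled to library totals, Lyve-1- replicate 3 had 6.86. Lyve-1+ replicate 2 then came before Lyve-1+ replicate 1, at 3.04 against 2.64, and the others had 0.089 to 0.242. A background read off these genes per kilobase would make up at most 1.10% of the counts of *Ptprc*, *Itgam*, *Emr1*, *Csf1r*, *Csf2ra* or *Csf2rb* in any library, and at most 5.65% of those of *Csf3r* and *Csf1*.

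All 8 genes passed the filter on low counts. In the edgeR quasi-likelihood test over 13348 genes, 3 of them were higher and 5 lower in Lyve-1+ cells, with a median log2 fold change of -0.45 against -0.011 over all genes tested. None was called at an adjusted p under 0.01 with a log2 fold change beyond 1, a rule that took 15 genes, or 0.112% of those tested (0.105% higher and 0.00749% lower), nor was any under an adjusted p of 0.05, where 0.629% of genes stood. At an unadjusted p under 0.05 were 4 of the 8, against 7.69% of all genes. They were *Csf1r*, higher (4.2% of all genes were higher at that level), and *Ptprc*, *Csf2ra* and *Csf2rb*, lower (3.5% of all genes). In these 4 genes the Lyve-1+ and Lyve-1- libraries also did not overlap, which held for 14.3% of all genes, 7.82% with the Lyve-1+ libraries higher and 6.5% with them lower. DESeq2, the tool named in the study's methods, called 1 of the 8, *Csf2rb*, with 1.72% of its 8415 genes called, and had *Csf1r* and *Csf2rb* under an adjusted p of 0.05, with 3.02% of its genes.

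**Figure D1:**
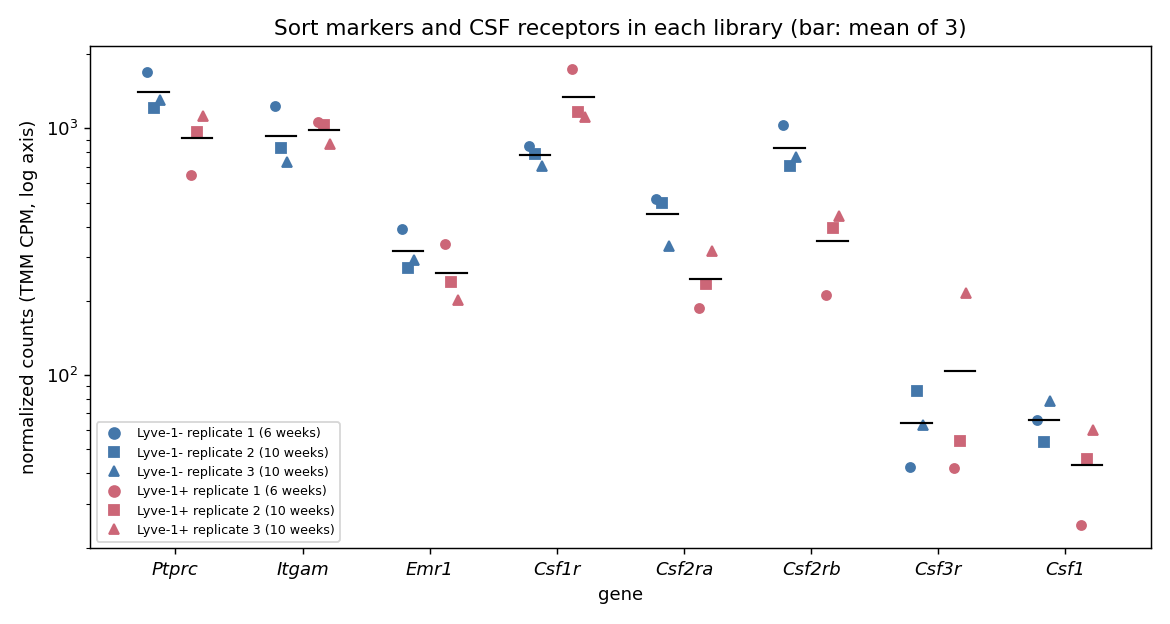
Normalized counts (TMM CPM, log axis) of the 8 genes in each library, with Lyve-1- libraries in blue, Lyve-1+ libraries in red, and a bar at the mean of 3. For *Csf1r* the Lyve-1+ libraries all sit above the Lyve-1- ones, and for *Ptprc*, *Csf2ra* and *Csf2rb* they all sit below, while the other 4 genes overlap.

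The 3 genes of the sort gate did not compare alike between the subsets. *Ptprc* (ENSMUSG00000026395, mm10 chr1:138062861-138175708, minus strand) encodes CD45, the tyrosine phosphatase found on nucleated cells of the blood lineage. Its level was 1693, 1210 and 1309 CPM in Lyve-1- replicates 1 to 3 and 644.7, 966.2 and 1128 CPM in Lyve-1+ replicates 1 to 3. Every Lyve-1+ library lay below every Lyve-1- library, and the lowest of all was the 6-week Lyve-1+ pool. The means were 1404 ± 255.3 and 913.1 ± 246.1 CPM (SD, n = 3 libraries per subset), and the difference was -0.62 on the log2 scale (SE 0.26, 95% interval -1.18 to -0.066). The unadjusted p was 0.0307 and the adjusted p 0.541 in edgeR, so the difference was not past the threshold. In bulk libraries of this kind, fewer cells of a type and less RNA per cell cannot be told apart.

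*Itgam* (ENSMUSG00000030786, chr7:128062640-128118491, plus strand) encodes CD11b, the alpha chain of an integrin that binds complement fragments and ICAM-1. It stood at 1232, 832.6 and 729 CPM in the Lyve-1- libraries and at 1057, 1034 and 862.2 CPM in the Lyve-1+ libraries. The groups overlapped over nearly all of their range. The difference was 0.080 log2 units (SE 0.25), and its 95% interval of -0.46 to 0.62 leaves room for a difference in either direction. Its partner chain *Itgb2* (CD18) was also without a call, at 813.7 ± 142.3 CPM in Lyve-1- and 658.3 ± 95.96 CPM in Lyve-1+ cells (log2 fold change -0.31, SE 0.24, 95% interval -0.82 to 0.21).

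*Emr1* (GENCODE name *Adgre1*, ENSMUSG00000004730, chr17:57358691-57483527, plus strand) encodes F4/80, an adhesion G protein-coupled receptor used to define mouse macrophages. Its values were 390.4, 272.1 and 293.5 CPM in Lyve-1- and 338.8, 239.4 and 201.3 CPM in Lyve-1+ cells. The 6-week library was the highest of its subset in both cases, and the groups overlapped. The difference was -0.29 log2 units (SE 0.28, 95% interval -0.89 to 0.31).

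The gate genes could also be set against each other within a library, which needs no scaling between libraries. These ratios of raw counts were chosen after the values were seen. Per count of *Ptprc*, *Itgam* had 0.728, 0.688 and 0.557 counts in the Lyve-1- libraries and 1.64, 1.07 and 0.764 in the Lyve-1+ libraries. The groups did not overlap. As the ratios were chosen with the values in view, they are given as a description, with no test. *Emr1* per *Ptprc* overlapped, at 0.224 to 0.231 in Lyve-1- and 0.178 to 0.525 in Lyve-1+ libraries.

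*Csf1r* was the one receptor of the set with higher RNA in Lyve-1+ cells and no overlap. The gene (ENSMUSG00000024621, chr18:61100598-61132149, plus strand) encodes the receptor for CSF1 and IL-34. It was measured at 847.4, 786.2 and 707.3 CPM in Lyve-1- replicates 1 to 3 and at 1745, 1164 and 1108 CPM in Lyve-1+ replicates 1 to 3. All 3 Lyve-1+ libraries lay above all 3 Lyve-1- libraries, with the 6-week pool far above the pair from 10 weeks. The means of 780.3 ± 70.21 and 1339 ± 352.7 CPM gave a log2 fold change of 0.78 (SE 0.25, 95% interval 0.25 to 1.31), or 1.72-fold. In edgeR the unadjusted p was 0.00661 and the adjusted p 0.28. In DESeq2 the log2 fold change was 0.74 with an adjusted p of 0.0462, and over all alternatives the adjusted p ran from 0.0462 to 1. Without the 2 libraries that had counts on the most olfactory receptor genes, the difference was 0.46 with an unadjusted p of 0.118 in edgeR.

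Of its ligands, *Csf1* (ENSMUSG00000014599, chr3:107741048-107760469, minus strand) was read at 65.54, 53.48 and 78.28 CPM in Lyve-1- and 24.61, 45.61 and 60.1 CPM in Lyve-1+ libraries. The groups overlapped, with the 6-week Lyve-1+ pool the lowest. Its log2 fold change of -0.60 (SE 0.42) had a 95% interval of -1.49 to 0.29. *Il34*, the other ligand, was low and uneven, at 2.86, 0 and 2.04 CPM in Lyve-1- and 2.97, 0.192 and 8.57 CPM in Lyve-1+ libraries. It was at or near the floor of 3 counts in replicate 2 of both subsets, with 0 and 4 counts. The other libraries had 14 to 68 counts. The background read off olfactory receptor genes came to 12.5 of the 14 counts in Lyve-1- replicate 3, so expression was not shown there. In Lyve-1+ replicate 2 that background was 5.55 counts, above the 4 counted.

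Both chains of the GM-CSF receptor were lower in every Lyve-1+ library than in any Lyve-1- library. *Csf2ra* (ENSMUSG00000059326, chr19:61223957-61228429, minus strand) encodes the alpha chain, which binds GM-CSF. Its values were 516, 498 and 332.7 CPM in Lyve-1- and 186.4, 234.2 and 318.4 CPM in Lyve-1+ libraries. The groups were separate, but the lowest Lyve-1- library and the highest Lyve-1+ library, both replicate 3, came close to each other. On the log2 scale the difference was -0.87 (SE 0.29, 95% interval -1.48 to -0.26), with an unadjusted p of 0.00852 and an adjusted p of 0.31 in edgeR.

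*Csf2rb* (ENSMUSG00000071713, chr15:78325752-78353847, plus strand) encodes the common beta chain, the signalling subunit of the GM-CSF, IL-3 and IL-5 receptors. It was read at 1032, 703.8 and 766.5 CPM in the Lyve-1- libraries and at 211.3, 394.2 and 442.1 CPM in the Lyve-1+ libraries. The lowest Lyve-1- library had 703.8 CPM and the highest Lyve-1+ library 442.1 CPM, so the groups were well apart. The means were 834 ± 174 and 349.2 ± 121.8 CPM, 2.39-fold higher in Lyve-1- cells, and the log2 fold change was -1.26 (SE 0.30, 95% interval -1.89 to -0.62). By its edgeR p of 0.000779 the gene ranked 118 among 13348, and its adjusted p of 0.0873 missed the threshold. DESeq2 gave a log2 fold change of -1.28 and an adjusted p of 0.00166, and over the alternatives the adjusted p ran from 0.00165 to 0.734. Without the 2 libraries that had counts on the most olfactory receptor genes the log2 fold change was -1.07, with an unadjusted p of 0.00478 in edgeR.

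Mice carry a close relative of this gene, *Csf2rb2* (ENSMUSG00000071714, chr15:78282507-78305721, minus strand), the beta chain used by IL-3 alone. The coding sequences, of 895 codons before the stop in *Csf2rb* and 877 in *Csf2rb2*, were 95.2% identical over 2628 aligned bases, with 242 bases as the longest identical run. Of all windows of 50 bases, the read length, 18.4% of the *Csf2rb* transcript and 19% of the *Csf2rb2* transcript were found in the other. A read that lies wholly in such a stretch fits both genes, although its mate may still tell them apart, and how such read pairs were counted is not given in the sources used here. A stretch of 120 coding bases with the most differences and one with none are shown because the genes differ most in the one and are identical in the other. Both come from the GENCODE transcripts on mm10, read 5′ to 3′ along the transcript, and capitals mark the 16 bases that differ.
Csf2rb exon 5, chr15:78338867-78338986, plus strand: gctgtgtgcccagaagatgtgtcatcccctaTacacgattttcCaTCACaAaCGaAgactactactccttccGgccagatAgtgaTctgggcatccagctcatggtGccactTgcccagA
Csf2rb2 exon 4, chr15:78294345-78294464, minus strand: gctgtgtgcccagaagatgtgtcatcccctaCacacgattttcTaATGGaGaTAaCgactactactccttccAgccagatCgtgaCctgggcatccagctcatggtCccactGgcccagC
Shared by Csf2rb exon 15, chr15:78348577-78348696, plus strand, and Csf2rb2 exon 14, chr15:78284752-78284871, minus strand: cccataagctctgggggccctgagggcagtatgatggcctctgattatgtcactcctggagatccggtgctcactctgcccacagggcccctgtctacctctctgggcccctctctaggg

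*Csf2rb2* showed the same separation. It stood at 231.7, 219.7 and 232.4 CPM in Lyve-1- and 89.6, 91.84 and 132.7 CPM in Lyve-1+ libraries. The Lyve-1- libraries were close to each other, and the highest Lyve-1+ library lay well below them. The log2 fold change was -1.12 (SE 0.28) with an edgeR p of 0.00126 and an adjusted p of 0.115, and in DESeq2 the adjusted p was 0.0109. Per count of *Csf2rb2*, *Csf2rb* had 4.45, 3.20 and 3.30 counts in the Lyve-1- libraries and 2.36, 4.29 and 3.33 in the Lyve-1+ libraries, which overlapped. The share of either gene's reads that came from the other was not tested.

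*Csf2*, which encodes GM-CSF, was read at 0.504, 2.93 and 1.02 CPM in Lyve-1- libraries and at 1.22, 0 and 0 CPM in Lyve-1+ libraries, too low to compare. The IL-3 receptor alpha chain gene *Il3ra* had 12.4 ± 2.14 CPM in Lyve-1- and 11.4 ± 6.98 CPM in Lyve-1+ cells. *Il3* and *Il5* did not pass the filter, and *Il5ra*, at 0 in replicate 2 of both subsets, reached 22.8 CPM in Lyve-1+ replicate 3.

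*Csf3r* (ENSMUSG00000028859, chr4:126024550-126044440, plus strand) had its highest value in a single library. The gene was measured at 42.26, 86.44 and 62.54 CPM in Lyve-1- and at 41.9, 54.14 and 215.7 CPM in Lyve-1+ replicates 1 to 3. Lyve-1+ replicate 3 was above every other library, and the other 5 overlapped. The log2 fold change of 0.70 (SE 0.56, 95% interval -0.52 to 1.93) turned to -0.43 without that library. Of the 8 neutrophil markers listed, 7 were in the file, and their summed level in that library was 296.6 CPM against 20.6 to 65.9 CPM in the other 5. The neutrophil gene *S100a9* stood there at 173 CPM, against 6.13 to 26 CPM elsewhere, and the chemokine receptor gene *Cxcr2* at 49.1 CPM against 0 to 9.92. *S100a8* and *Mmp8* were also highest in that library, at 46 and 15 CPM. *Retnlg* was not, with 13.5 CPM there and up to 24.2 CPM in Lyve-1- libraries. The granule genes *Ngp* and *Camp* were at 0 there, *Camp* was at 0 in all Lyve-1+ libraries, and *Ly6g* was not analysed here. The part of neutrophils in the *Csf3r* value was not tested.

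Since *Csf1r* was higher and both GM-CSF receptor chains were lower in every Lyve-1+ library, none of them called, their count ratios within a library had to separate the subsets, and the values show by how much. Per count of *Csf2rb*, *Csf1r* had 0.821, 1.12 and 0.923 counts in Lyve-1- libraries and 8.26, 2.95 and 2.51 in Lyve-1+ libraries. Every Lyve-1+ ratio was above every Lyve-1- ratio, with the 6-week pool the highest. Per count of *Csf2ra* the values were 1.64, 1.58 and 2.13 against 9.36, 4.97 and 3.48, again without overlap. Against the gate genes, *Csf1r* had 0.5 to 0.65 counts per count of *Ptprc* in Lyve-1- libraries and 0.983 to 2.71 in Lyve-1+ libraries, and 0.688 to 0.97 against 1.13 to 1.65 per count of *Itgam*. *Csf2rb* per count of *Csf2ra* overlapped, at 1.41 to 2.30 in Lyve-1- and 1.13 to 1.68 in Lyve-1+ libraries.

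**Figure D2:**
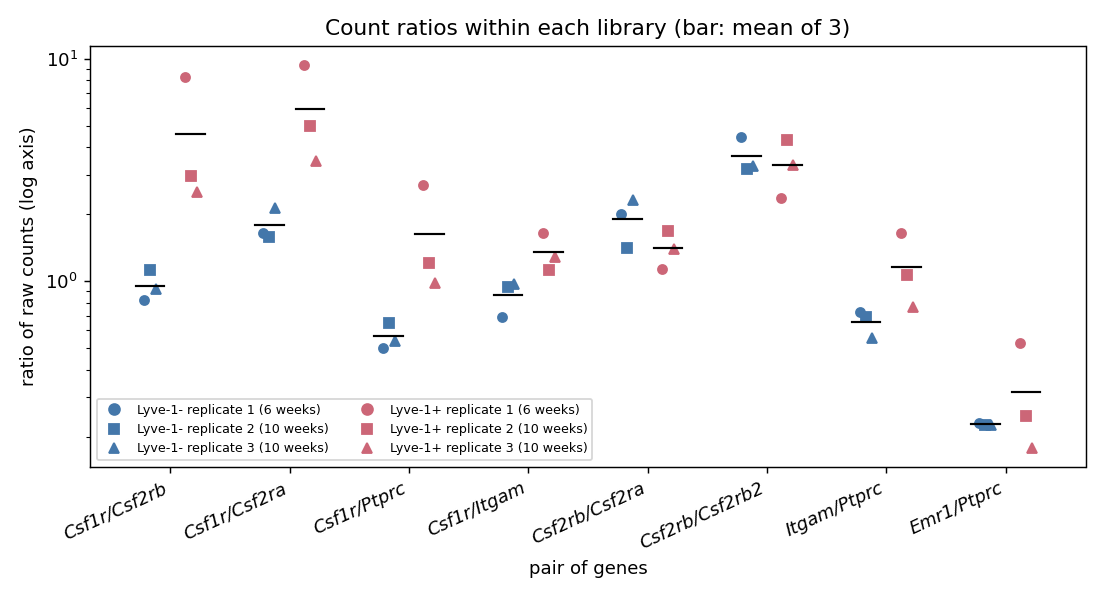
Ratio of raw counts of 2 genes within each library (log axis), with Lyve-1- libraries in blue, Lyve-1+ libraries in red, shapes for the replicates and a bar at the mean of 3. The *Csf1r* ratios and *Itgam*/*Ptprc* do not overlap between subsets, and for *Csf1r*/*Csf2rb* they run from 0.821 to 1.12 in Lyve-1- and from 2.51 to 8.26 in Lyve-1+ libraries.

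Levels were compared between genes as CPM per kilobase of RefSeq-matched exon sequence. In Lyve-1- cells the order of the means was *Ptprc* (274 CPM per kb), *Csf2ra* (243), *Csf1r* (202), *Itgam* (199), *Csf2rb* (169), *Emr1* (98.4), *Csf3r* (18.2) and *Csf1* (14.9). Neighbours in that order overlapped, except that *Emr1* lay below *Csf2rb* and *Csf3r* below *Emr1* in every library. In Lyve-1+ cells *Csf1r* came first at 346 CPM per kb, above all values of the next gene, *Itgam* (210). *Ptprc* (178), *Csf2ra* (133), *Emr1* (80.3), *Csf2rb* (70.9), *Csf3r* (29.6) and *Csf1* (9.82) followed, each overlapping its neighbour. With all annotated exons as the length, *Ptprc* came to 76.7 CPM per kb in Lyve-1- and 49.9 in Lyve-1+ cells instead. *Csf1r* then came to 135 and 232, *Itgam* to 185 and 196, and *Csf2ra* to 156 and 85.8. On that length *Csf1r* overlapped *Itgam* in Lyve-1+ cells, so both orders depend on the gene model. Among 21373 genes ranked per kilobase, *Csf1r* stood between the 98.9 and 99.6 percentile of every library, whereas *Csf2rb* spanned 93.4 to 98.8.

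Age was compared as 10 weeks against 6 weeks with the subset in the model. None of the 8 was called, as was none of the 13348 genes, and 1 of the 8 had an edgeR p under 0.05, against 3.33% of all genes. It was *Csf3r*, 1.23 log2 units higher at 10 weeks, with an unadjusted edgeR p of 0.0313. Without Lyve-1+ replicate 3 this was 0.62, with an unadjusted edgeR p of 0.196. With any other 10-week library left out it was 1.19 to 1.45, with an unadjusted edgeR p of 0.00113 to 0.0197 and no adjusted p under 0.184. The subset difference itself was larger at 6 weeks for some genes. For *Csf2rb* the 6-week libraries differed by -2.29 log2 units (1 library each), and the 10-week libraries alone by -0.82, with an adjusted edgeR p of 0.734. The interaction of age and subset had an unadjusted p of 0.0106 and an adjusted p of 0.869 in edgeR. *Ptprc* differed by -1.39 at 6 weeks and -0.27 at 10 weeks, with an unadjusted p of 0.0287 and an adjusted p of 0.976 for the interaction in edgeR. These were the 2 of 8 genes with an interaction p under 0.05, against 4.59% of all genes. The 6-week Lyve-1+ pool was also one of the libraries with counts on the most olfactory receptor genes, so age and library cannot be told apart there. In the 10-week libraries alone, *Csf1r* differed by 0.60, *Csf2ra* by -0.60 and *Itgam* by 0.27, each with an adjusted edgeR p of 1.

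Downstream of the receptors, 20 signalling genes were listed and tested. Of these, 5 were higher and 15 lower in Lyve-1+ cells, with a median log2 fold change of -0.22, and none was called. An unadjusted p under 0.05 was reached by 4, all lower, where 3.5% of all genes were lower at that level. They were *Jak2*, *Plcg2*, *Pik3r1* and *Cish*, of which the last 3 were picked out after their values were seen.

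*Jak2*, the kinase bound to the common beta chain, had the lowest log2 fold change of the list. Its level was 599.6, 497.8 and 486 CPM in Lyve-1- and 84.11, 222.6 and 287.9 CPM in Lyve-1+ libraries. The subsets did not overlap, and as for *Csf2rb* the lowest value was that of the 6-week Lyve-1+ pool. The difference of -1.41 log2 units (SE 0.37) had an adjusted p of 0.145 in edgeR, and DESeq2 gave an adjusted p of 0.00683. The interaction with age had an unadjusted edgeR p of 0.00368 (adjusted 0.656). *Jak1*, its relative, differed by -0.18 (SE 0.24).

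*Cish*, a target and inhibitor of STAT5 signalling, overlapped between subsets at 71, 15.19 and 59.62 CPM in Lyve-1- and 12.27, 19.4 and 24.19 CPM in Lyve-1+ libraries (log2 fold change -1.38, SE 0.59, 95% interval -2.64 to -0.13). *Plcg2*, a phospholipase of immune receptor signalling, differed by -0.77 (SE 0.26), and *Pik3r1*, the regulatory subunit of PI3 kinase, by -0.66 (SE 0.28). *Socs3*, an inhibitor of cytokine receptors, had the highest log2 fold change of the list and did not overlap, at 493.5 to 581.2 CPM in Lyve-1- and 593.5 to 800.4 CPM in Lyve-1+ libraries (log2 fold change 0.39, SE 0.24, 95% interval -0.11 to 0.90). The transcription factor genes *Stat5a* and *Stat5b* differed by 0.0063 (SE 0.44) and 0.38 (SE 0.33).

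**Figure D3:**
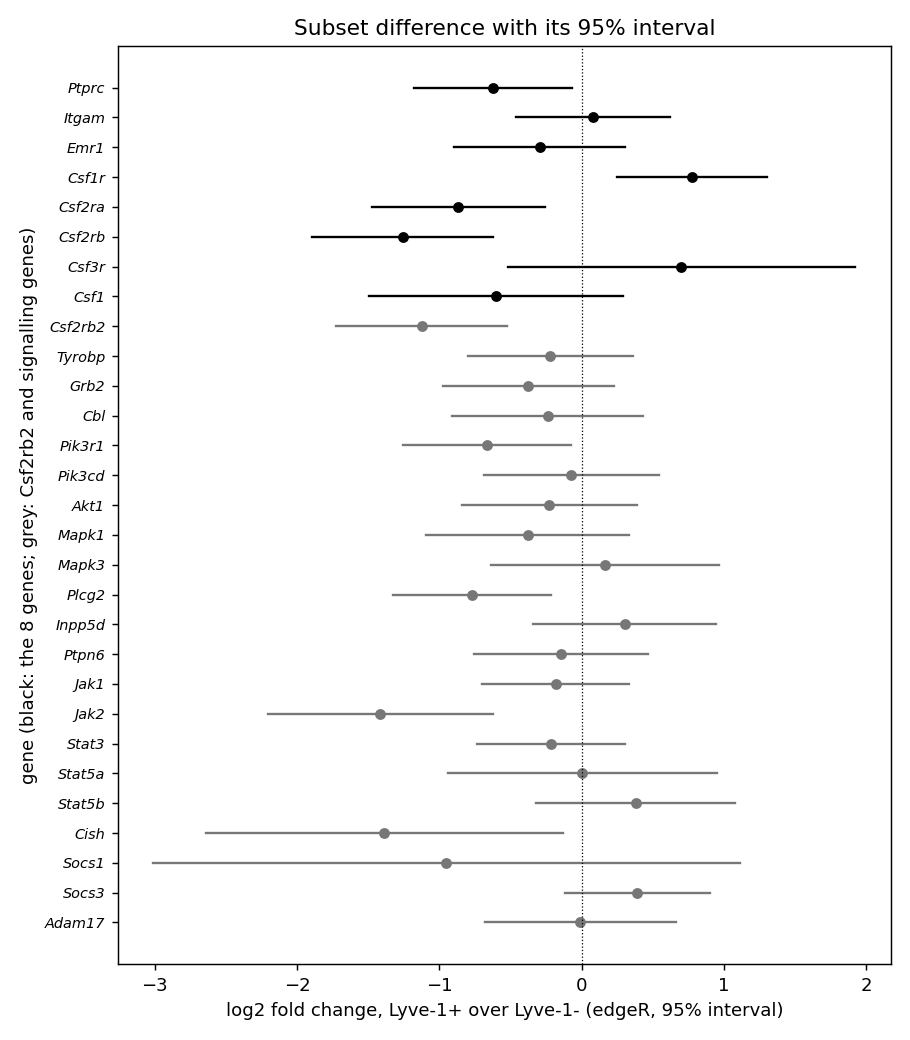
Log2 fold change of Lyve-1+ over Lyve-1- cells from edgeR with its 95% interval, for the 8 genes in black and for *Csf2rb2* and the 20 signalling genes in grey. The intervals of *Ptprc*, *Csf2ra*, *Csf2rb*, *Csf2rb2*, *Jak2*, *Plcg2*, *Pik3r1* and *Cish* lie below 0, that of *Csf1r* lies above 0, and the others cross it.

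The families of the gate markers were described in the same way. Among the 5 beta2 integrin genes none was called, and the median log2 fold change was -0.31. *Itgad* was the lowest of them, with 4.35 to 8.74 CPM in Lyve-1- and 0.288 to 3.02 CPM in Lyve-1+ libraries and an interval that covered 0. *Itgal* (CD11a) had the highest log2 fold change, at 0.23 (SE 0.52). In the adhesion receptor family of F4/80 all 3 tested genes were lower without a call, *Emr4* by -1.05 (SE 0.60) and *Cd97* by -0.46 (SE 0.25), with the latter at 757 to 868.6 CPM in Lyve-1- and 450.7 to 710.4 CPM in Lyve-1+ libraries. Of 6 partners of CD45 and Src-family kinases none was called, and the median log2 fold change was -0.093. The log2 fold changes of *Csk*, *Lyn* and *Ptprcap* lay between -0.11 and -0.063. *Fgr*, a Src-family kinase of myeloid cells, stood at 109.9 to 117.3 CPM in Lyve-1- and 19.81 to 91.85 CPM in Lyve-1+ libraries (log2 fold change -0.88, SE 0.45). *Cd22*, an inhibitory receptor gene of B cells, was the one with a higher mean, at 1.38 log2 units (SE 0.81) from levels of 3.44 to 54.8 CPM.

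Genes were ranked by how closely their log2 CPM, centred on its mean over the 6 libraries, followed that of a given gene. The measure was the root mean square distance in log2 units among 4666 genes with a mean log2 CPM of at least 5, and with 6 libraries it is a description. Nearest to *Csf1r* were *Serinc3* (0.079), *Tor1aip2* (0.096) and *Emp1* (0.098), and *Serinc3* had 843, 768.8 and 671 CPM in Lyve-1- and 1477, 1074 and 993 CPM in Lyve-1+ libraries. The nearest to *Ptprc* were *Parp8*, *Cd300a* and *Elovl5* (0.11 to 0.12), to *Itgam* *Dyrk1a*, *Rnf13* and *Sestd1* (0.065 to 0.067), and to *Emr1* *Usp47*, *Rab21* and *Taok3* (0.056 to 0.099). Among the 8 genes themselves the closest pair was *Ptprc* and *Csf1* (0.23), followed by *Ptprc* and *Csf2ra* (0.25) and *Itgam* and *Emr1* (0.28). The farthest pair was *Csf1r* and *Csf2rb* (1.17).

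PU.1 is the transcription factor known to drive many myeloid receptor genes, and its core motif is GAGGAA. Promoter windows of 250 bases before the start site, from RefSeq on GRCm38.p6, were at hand for 5 of the 8 genes (*Ptprc*, *Itgam*, *Csf2ra*, *Csf3r* and *Csf1*). All of these genes but *Csf1* held the core on one strand or the other in a window, where 23.3% of 32817 promoter windows held it. *Ptprc* had a pair of windows, and the more downstream of them held none. None of the 5 held the STAT motif TTCNNNGAA, found in 7.01% of promoters. Both strands were searched for either motif, a match to one may share the letters GAA with the other, and a match is a description of the sequence. The windows of *Csf2ra* and *Csf2rb2*, which were lower in every Lyve-1+ library, and of *Itgam*, which overlapped, are shown 5′ to 3′ in the direction of the gene, with the core in capitals on either strand.
Csf2ra, chr19:61228419-61228668, minus strand: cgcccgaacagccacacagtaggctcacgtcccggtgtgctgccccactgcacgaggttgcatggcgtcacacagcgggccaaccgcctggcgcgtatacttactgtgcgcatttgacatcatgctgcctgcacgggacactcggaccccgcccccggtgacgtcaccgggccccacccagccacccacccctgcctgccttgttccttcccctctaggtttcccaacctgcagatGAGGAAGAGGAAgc
Csf2rb2, chr15:78305722-78305971, minus strand: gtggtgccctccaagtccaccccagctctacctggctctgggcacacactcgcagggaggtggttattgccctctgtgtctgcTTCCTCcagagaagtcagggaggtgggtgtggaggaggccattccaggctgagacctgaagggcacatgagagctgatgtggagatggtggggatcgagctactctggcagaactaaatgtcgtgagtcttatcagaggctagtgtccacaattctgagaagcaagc
Itgam, chr7:128062390-128062639, plus strand: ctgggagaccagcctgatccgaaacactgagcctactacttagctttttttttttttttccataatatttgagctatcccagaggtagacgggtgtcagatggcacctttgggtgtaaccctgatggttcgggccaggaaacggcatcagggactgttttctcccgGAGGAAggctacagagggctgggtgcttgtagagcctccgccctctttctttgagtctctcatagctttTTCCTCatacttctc
*Csf2ra* held the core 14 and 8 bases before its start in tandem, and *Itgam* held it 84 bases before its start and, on the other strand, 15 bases before it. In *Csf2rb2* it began 167 bases before the start on the other strand, and that window also held 1 STAT match.

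The sorted cells carried macrophage RNA in every library. The 6 macrophage markers summed to 1959 to 3591 CPM in Lyve-1- and 3035 to 4473 CPM in Lyve-1+ libraries, and 5 of them were higher in Lyve-1+ cells. All 7 dendritic cell markers had a log2 fold change below 0 in Lyve-1+ cells, with none called. Of these, 3 (*Ccl22*, *Ccr7* and *Xcr1*) were lower in every Lyve-1+ library, as were 6.5% of all genes. *Flt3*, *Zbtb46*, *Clec9a* and *Cd209a* overlapped. *Ccl22* and *Ccr7* had the highest Lyve-1- means of the list, 416 and 367.1 CPM, against 30.59 and 60.34 CPM in Lyve-1+ cells. The sum of the 7 was 541.6, 1069 and 1591 CPM in Lyve-1- and 126.6, 240.6 and 419.1 CPM in Lyve-1+ libraries. The sums did not overlap, and were lower in the same libraries as *Csf2ra* and *Csf2rb*, which dendritic cells are known to express, and the Lyve-1- library with the lowest dendritic sum had the highest *Csf2rb*, 1032 CPM. No defining dendritic marker was at 0 in all libraries of a subset, and *Clec9a* was at 0 in 1 library of each. Their part in the GM-CSF receptor values was not tested. Monocyte markers summed to 453.7 to 1024 CPM in Lyve-1- and 305.5 to 741.2 CPM in Lyve-1+ libraries, and eosinophil markers to 28.7 to 127.7 against 13.6 to 48.3 CPM. T cell markers lay at 124.1 to 176.4 CPM and 46.5 to 195.6 CPM, B cell markers at 3.03 to 34 CPM and 10.9 to 87.2 CPM, NK cell markers at 2.13 to 17.2 CPM and 0.126 to 7.71 CPM, and mast cell markers at 39.3 to 82.4 CPM and 41.5 to 242.2 CPM. RNA of genes used as markers of cells outside the CD45 gate was also present. Fibroblast markers summed to 256.1 to 316 CPM in Lyve-1- and 456.6 to 1363 CPM in Lyve-1+ libraries. Of these 7 genes, 4 were higher in every Lyve-1+ library, as were 7.82% of all genes, and *Dcn*, *Dpt* and *Pi16* overlapped. The study reported collagen-associated genes as higher in its Lyve-1+ macrophages, and the cells behind the fibroblast marker RNA were not tested. Epithelial markers summed to 55 to 410.6 CPM and 46.1 to 101.5 CPM, endothelial markers to 59.2 to 132.8 CPM and 87.6 to 243.8 CPM, and adipocyte markers to at most 5.98 CPM. The part of cells outside the gate in the *Ptprc* difference was not tested.

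**Figure D4:**
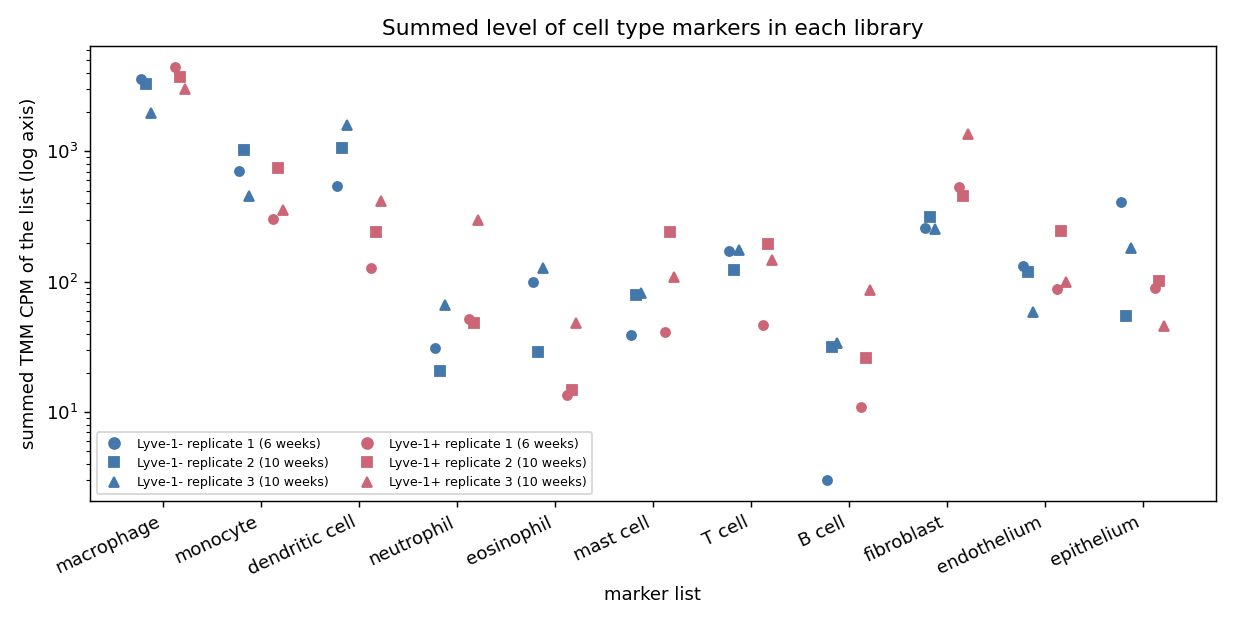
Summed normalized counts (TMM CPM, log axis) of 11 marker lists in each library, with Lyve-1- libraries in blue, Lyve-1+ libraries in red and shapes for the replicates. Dendritic cell sums are lower in all Lyve-1+ libraries, fibroblast sums are higher in all of them, and the neutrophil sum stands out in Lyve-1+ replicate 3 at 296.6 CPM.

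The direction of the differences held under most alternatives. Of 137 combinations of a gene and an alternative, 134 kept their direction. All alternatives reuse the same 6 libraries, so these tallies are a description and no independent support. For the 4 genes without overlap, leaving a library out could hardly reverse the direction. *Csf2rb* had an unadjusted p under 0.05 in all 18 of its alternatives, which include its sum with *Csf2rb2*, *Csf2ra* in 16 of 17, *Csf1r* in 15 of 17 and *Ptprc* in 13 of 17. *Emr1*, *Itgam* and *Csf1* had none, and *Csf3r* had 1 of 17.

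**Figure D5:**
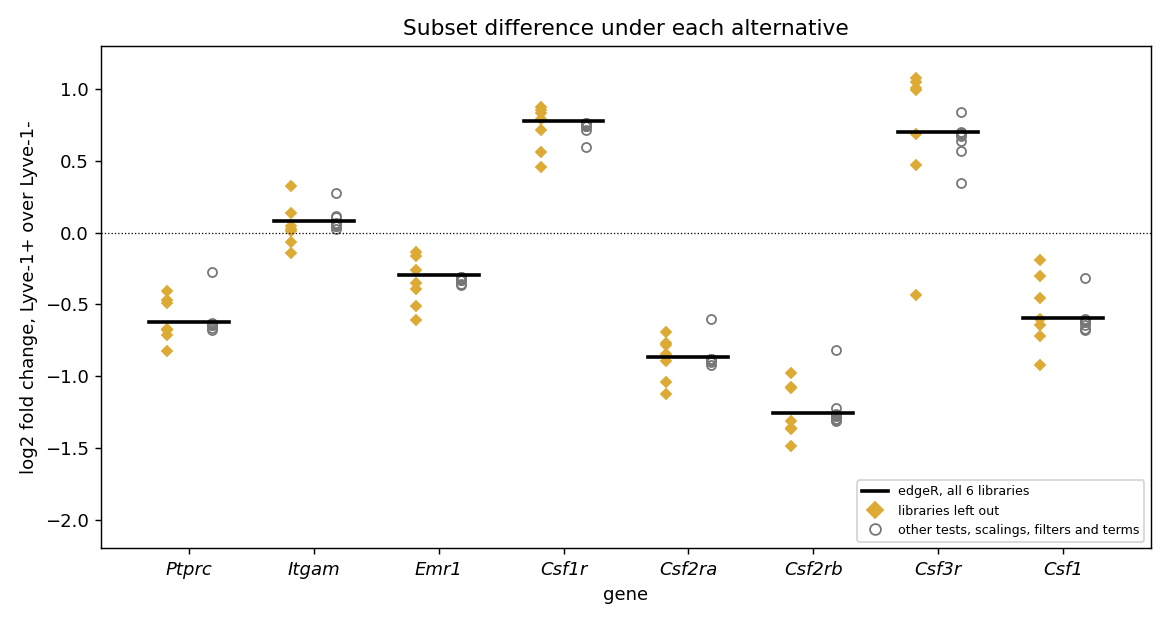
Log2 fold change of Lyve-1+ over Lyve-1- cells for each of the 8 genes, with a bar for edgeR on all 6 libraries, diamonds for fits with 1 or 2 libraries left out, and circles for other tests, scalings, filters and model terms and for the 10-week libraries alone. *Csf1r* stays between 0.46 and 0.87 and *Csf2rb* between -1.49 and -0.82, while *Itgam* and *Csf3r* cross 0 when particular libraries are left out.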

How the data were processed

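Read pairs of 50 bp were mapped by the authors (HISAT2 2.0.2, mm10) and summed per gene symbol (featureCounts 1.5.0), and the deposited values of the 6 libraries are raw counts with no scaling. The annotation and strand setting of the counting are not given in the sources used here. The library kit was stranded. A 6-week library that the authors removed was not analysed here.

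Counts were filtered by filterByExpr, scaled by TMM and tested with the edgeR 4.0.16 quasi-likelihood F test (R 4.3.3, limma 3.58.1), with no term but the subset and p-values adjusted by Benjamini-Hochberg over 13348 genes. The call rule was an adjusted p under 0.01 with a fold change between 1 and 10 log2 units in size. DESeq2 1.42.0 was an alternative, beside other scalings, filters, model terms and left-out libraries. Likeness used log2 CPM with a prior count of 2. Of the symbols, 22749 matched GENCODE M21 directly, 916 by a RefSeq synonym (*Emr1* among them) and 396 not. The scripts were tested on simulated data.

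The 8 genes and the gene lists were chosen with earlier results of these data known. Named in the text are the 8, *Lyve1*, *Csf2rb2*, *Il34*, *Itgb2*, the largest increase and decrease of each list and the 3 nearest genes, and any others were chosen after their values were seen. Totals give a floor of 3 counts, which covers counting error only.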

Additional observations from a re-analysis of the deposited data

Results flagged for a closer look

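The subset difference of *Itgam* had opposite signs at the 2 ages, with the 6-week Lyve-1+ library below the 6-week Lyve-1- library and both 10-week Lyve-1+ libraries above both 10-week Lyve-1- libraries. It was -0.22 log2 units at 6 weeks, with 1 library per subset, and 0.28 at 10 weeks, with 2 per subset. The interaction of age and subset had an adjusted p of 0.976 in edgeR, so the ages were not shown to differ. *Csf3r* also had opposite signs, -0.012 at 6 weeks and 0.84 in the 10-week libraries alone, but its 10-week libraries overlapped.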

How the results depend on the processing

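Of the 8 genes, only *Csf2rb* changed its side of the threshold. It was called with DESeq2 (-1.28) and in edgeR with no filter on low counts (-1.27). So 1 gene of the 8 was called in each of these, against 0 in the main edgeR fit. All genes called were 145 of 8415 with DESeq2 and 188 of 21663 with no filter. Whether same-numbered libraries came from the same mice is not given by the labels. The correlations of same-numbered deviations from the subset mean were -0.046, -0.0018 and -0.15, but with 3 pools per subset these cannot settle it. With the replicate number as a block in edgeR *Csf2rb* was called at -1.30 (1 of the 8), with 140 of 13348 genes called in all. The number of all genes called, 15, became 145 with DESeq2, 188 with no filter, 32 with at least 10 counts in every library, 58 with age as a covariate, 6 with the olfactory receptor background subtracted, 84 at an adjusted p under 0.05 and 1 to 81 with a library left out, where the lowest left out Lyve-1- replicate 3 and the highest Lyve-1+ replicate 2. Without the 2 libraries with counts on the most olfactory receptor genes (an alternative chosen after the data were seen) it was 0, and 2 of the 8 genes had an unadjusted p under 0.05 in place of 4, as did 1 in the 10-week libraries alone. The share of all genes at that level is not given for these fits, so the counts cannot be set against it. *Itgam* turned to -0.069 without Lyve-1- replicate 3 and to -0.14 without both of those libraries, and *Csf3r* to -0.43 without Lyve-1+ replicate 3. Left-out libraries gave -0.83 to -0.41 for *Ptprc*, -0.069 to 0.32 for *Itgam*, -0.51 to -0.13 for *Emr1*, -0.92 to -0.30 for *Csf1*, -0.43 to 1.08 for *Csf3r*, 0.56 to 0.87 for *Csf1r*, -1.12 to -0.69 for *Csf2ra* and -1.49 to -0.98 for *Csf2rb*. Genes called for age went from 0 to between 0 and 20 (12 with Lyve-1- replicate 2 left out, and 20 with Lyve-1+ replicate 2 or 3 left out), and for the interaction from 0 to 1 with at least 10 counts in every library. The cause was not tested where samples and genes stayed the same. Over all genes the median of the log2 fold changes was -0.011, and it was -0.043 with DESeq2 size factors and -0.084 with total size. The 3 pools per subset, at 6478007 counts or more, limit what could be detected for *Csf2*, *Il34*, *Il3* and *Il5*.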
